A study of Mus musculus with 7 samples.

Results

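The genes described are 31 genes of sterol and fatty acid synthesis, taken from the table of read counts by their names. They comprised 8 genes of the mevalonate and isoprenoid steps, 11 genes of the steps from squalene to cholesterol, 5 genes of the SREBP control circuit, the sterol carrier gene Stard4 and 6 genes of fatty acid synthesis. The table lists 55341 gene names in all, of which 15257 passed a filter on low counts, and 30 of the 31 genes were among these. The exception was Scd1. Other enzymes of the same routes were not analysed here.

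The libraries were made from microglia, the resident macrophages of the brain, sorted as CD11b+CD45low cells from the cortex of 5xFAD mice. The study used only female mice. They are on a C57BL/6 background and carry human APP and PS1 transgenes with familial Alzheimer's disease mutations, both driven by the neuron-specific Thy1 promoter, so that Aβ is deposited in the brain. All hosts had received cortical cells of WT embryos and were examined 4 weeks after this injection, at a labelled age of 14 weeks. Of the 7 libraries, 3 came from the excised graft (labelled Graft, here inside graft 1 to 3) and 4 from cortical tissue close to it (labelled Control, here outside graft 1 to 4). Host genotype, age and injection were therefore shared by both groups, and no library came from a mouse without a graft. The labels do not say whether libraries came from separate mice, so P values measure the spread between these libraries, which may be partly technical.

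Cells make cholesterol from acetyl-CoA through mevalonate, isoprenoid diphosphates, squalene and a series of sterol intermediates, and side branches of the route supply lipid anchors for membrane proteins. The route is switched by SREBP proteins, which are held in the endoplasmic reticulum by SCAP and INSIG proteins when sterols are plentiful and are otherwise cut to release a transcription factor. SREBP-2, from Srebf2, acts mainly on sterol genes and SREBP-1, from Srebf1, mainly on fatty acid genes. In the brain cholesterol is made locally, and microglia that digest myelin or debris handle large amounts of it.

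Between 23241114 and 25882122 reads were counted per library inside the graft and between 18644807 and 24599193 outside it. Outside graft 1 had the smallest total and the lowest library weight (0.448, against 0.799 to 1.76 in the other libraries). The sum of 6 microglia markers was 37957 to 43790 CPM (counts per 1000000, on library sizes scaled by the trimmed mean of M values) inside and 42910 to 48833 CPM outside the graft. The sum of 6 monocyte markers was 652, 76.6 and 1358 CPM in inside graft 1, 2 and 3 and 6.40 to 28.2 CPM outside. Most of the inside sum was Chil3 (587, 67.6 and 1189 CPM). The groups did not overlap for Chil3 and Ly6c2 and overlapped for Ccr2, Plac8, Vcan and S100a4. The sum of 6 border-associated macrophage markers was 15.6 to 94.7 CPM inside and 5.96 to 15.0 CPM outside. Their groups did not overlap for Pf4 and Ms4a7 and overlapped for Mrc1, Cd163, Lyve1 and Cbr2. Sums for dividing cells were 78.2 to 113 CPM inside and 7.97 to 35.7 CPM outside. All 6 dividing cell markers had every inside library above every outside library, as 5.65% of all genes did. Of these 6, Top2a and Birc5 passed an adjusted P of 0.05 in voomWithQualityWeights (0.0316 and 0.0482), and 0 did in edgeR. Oligodendrocytes, which make much of the brain's cholesterol, gave 156 to 160 CPM inside and 155 to 165 CPM outside, with Mog and Mobp below 1 CPM in every library, and the astrocyte marker Gja1 was at 0 counts throughout. The astrocyte sum, nearly all of it Slc1a3, was 249 to 299 CPM inside and 327 to 351 CPM outside. However, 4 of the 5 tested astrocyte markers had a positive log2 fold change in limma's voomWithQualityWeights. Of these 4, Aqp4 had 1.79 there but -0.52 in edgeR's quasi-likelihood test. Gfap and Aldoc reached at most 1.55 and 1.31 CPM in any library. The other, Aldh1l1, had 9.73, 8.52 and 1.39 CPM inside and 0 to 2.49 CPM outside. It was high in the same inside libraries as many sterol enzymes described below. The neuron sum was 3.73 to 6.07 and 4.09 to 10.9 CPM. The part of any of these in the values below was not tested.

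Inside the graft, more of these genes stood higher than lower, but none passed an adjusted P of 0.05. In limma's voomWithQualityWeights, 21 of the 30 tested genes had a positive log2 fold change (inside over outside) and 9 a negative one, where 48.3% of all genes tested were positive. The median log2 fold change was 0.32, against -0.013 for all genes, and 0.37 in edgeR's quasi-likelihood test. The median of 0.32 was 0.166 without inside graft 2 and 0.40 without inside graft 3. In bulk libraries, fewer cells of a type and less RNA per cell cannot be told apart.

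With voomWithQualityWeights, 0 of the 30 genes had an adjusted P below 0.05, where 0.492% of all genes did (0.433% higher and 0.059% lower inside the graft), and 0 had one below 0.01, the threshold of the study, where 0.0197% did. The counts were also 0 in edgeR's quasi-likelihood test, which called 0.0983% of all genes at 0.05. The DESeq2 Wald test, run as an alternative, called 2.75% of all genes at 0.05 and 2 of these 30, Srebf2 and Acaca. At an unadjusted P below 0.05, voomWithQualityWeights gave 7 genes that were higher and 0 that were lower inside the graft, where 7.47% and 4.71% of all genes were. The 7 were Msmo1, Sc5d, Srebf2, Insig1, Stard4, Acaca and Scd2, and their number was 4 without inside graft 2. In edgeR the counts were 5 higher and 0 lower, beside 5.76% and 3.79% of all genes, and the 5 were Srebf2, Acaca, Msmo1, Insig1 and Sqle. The 4 genes named by both tests compare with 5.07% of all genes. Leaving out inside graft 1 or 2 lowered the edgeR count to 2, and leaving out inside graft 3 gave 8. The share of all genes was not computed with a library left out, so these changes cannot be read as particular to these genes.

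The log2 fold change was bounded for many of these genes, with a 95% confidence interval between -1 and 1 for 19 of the 30 and for 58.1% of all genes, so that a change of more than 2-fold in either direction lay outside the interval. The interval lay above 0 for 7 genes and below 0 for none of the 30. These are the same 7 genes as those with an unadjusted P below 0.05 in voomWithQualityWeights, and not a further result. The plot of log2 fold changes by pathway role shows wide intervals for genes with few or scattered counts, Hsd17b7, Elovl6, Stard4, Idi1 and Sqle.

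**Figure D1:**
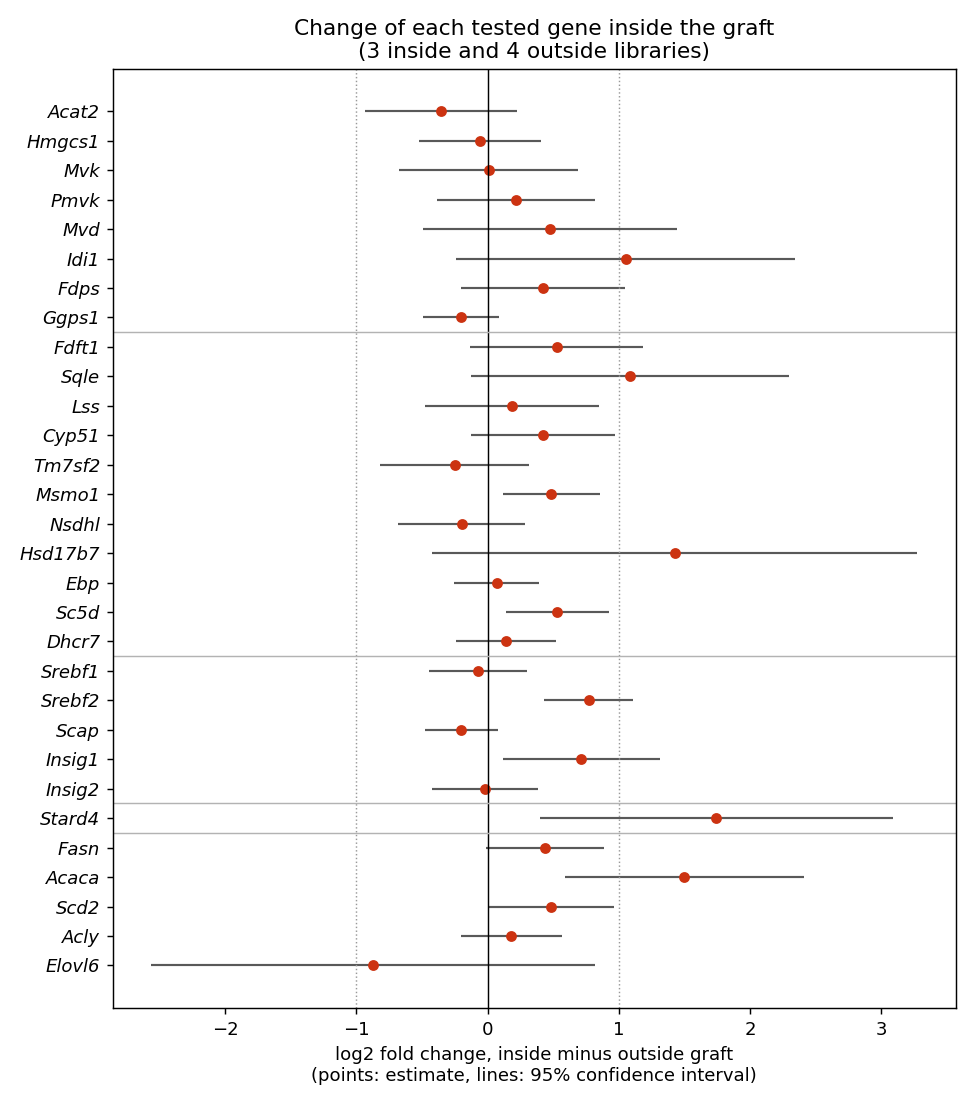
Log2 fold change, inside minus outside the graft (horizontal axis, dotted lines at -1 and 1), of the 30 tested genes from voomWithQualityWeights, with points for the estimate and lines for the 95% confidence interval, in order of pathway role and separated by grey lines between roles. Srebf2 has an interval from 0.43 to 1.11, and 7 of the 30 intervals lie wholly above 0.

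In the SREBP control circuit, Srebf2 stood higher in all 3 inside libraries, while the groups overlapped for Srebf1. Srebf2 (ENSMUSG00000022463.8) lies on the plus strand of chromosome 15 of GRCm38 from 82147181 to 82205379 and shared no exon with another gene. Its level was 57.6, 62.3 and 58.2 CPM in inside graft 1, 2 and 3 and 41.0, 33.1, 29.5 and 40.1 CPM in outside graft 1, 2, 3 and 4. The 3 inside libraries lay close together and all above the 4 outside libraries. The log2 fold change was 0.77 (standard error, SE, 0.15, 1.71-fold, adjusted P = 0.0546) in voomWithQualityWeights, with a 95% interval from 0.43 to 1.11, and 0.72 (adjusted P = 0.105) in edgeR. By unadjusted P it ranked 109 of 15257 genes in the first test and 128 in the second, the smallest P of the 30 genes in each. The adjusted P crossed 0.05 with the choice of processing, from 0.0272 when genes needed 10 counts in every library to 0.273 without outside graft 3, and was 0.0016 in DESeq2. These settings called 211, 1 and 420 genes in all, against 75 in the main test. Leaving out any single library gave estimates between 0.67 and 0.86.

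Srebf1 had 40.8, 57.9 and 35.9 CPM inside and 50.6, 48.9, 42.6 and 47.7 CPM outside the graft. Inside graft 2 lay above the outside libraries and the other inside libraries lay below all of them. The log2 fold change was -0.07 (95% interval -0.45 to 0.30, adjusted P = 0.918 in voomWithQualityWeights) and changed sign without inside graft 3. The table has 1 row for the gene and does not separate the SREBP-1a and SREBP-1c transcripts.

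Insig1, which retains the SREBP and SCAP complex in the endoplasmic reticulum and is itself a target of SREBP, had 12.6, 10.3 and 13.1 CPM inside and 4.27, 9.56, 8.73 and 5.95 CPM outside the graft. The inside libraries again lay above all outside libraries, although inside graft 2 exceeded outside graft 2 by little. Its log2 fold change was 0.71 (SE 0.27, adjusted P = 0.303) in voomWithQualityWeights and 0.75 (adjusted P = 0.494) in edgeR.

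Its paralog Insig2 had 59.8, 46.1 and 56.0 CPM inside and 34.4, 61.0, 64.0 and 49.3 CPM outside, with overlapping groups and a log2 fold change of -0.02 (95% interval -0.43 to 0.39, adjusted P = 0.984 in voomWithQualityWeights). Per length, Insig2 was the highest of the 5 control genes, at 15.5 CPM per kilobase inside and 15.0 outside, against 3.88 and 2.30 for Insig1. Scap, the sterol-sensing escort, had 57.3, 61.7 and 65.4 CPM inside and 56.3, 67.3, 72.3 and 72.5 CPM outside the graft. These groups overlapped as well, and the log2 fold change was -0.20 (95% interval -0.48 to 0.08, adjusted P = 0.599 in voomWithQualityWeights). The median over the 5 control genes was -0.02, with 2 genes higher and 3 lower.

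**Figure D2:**
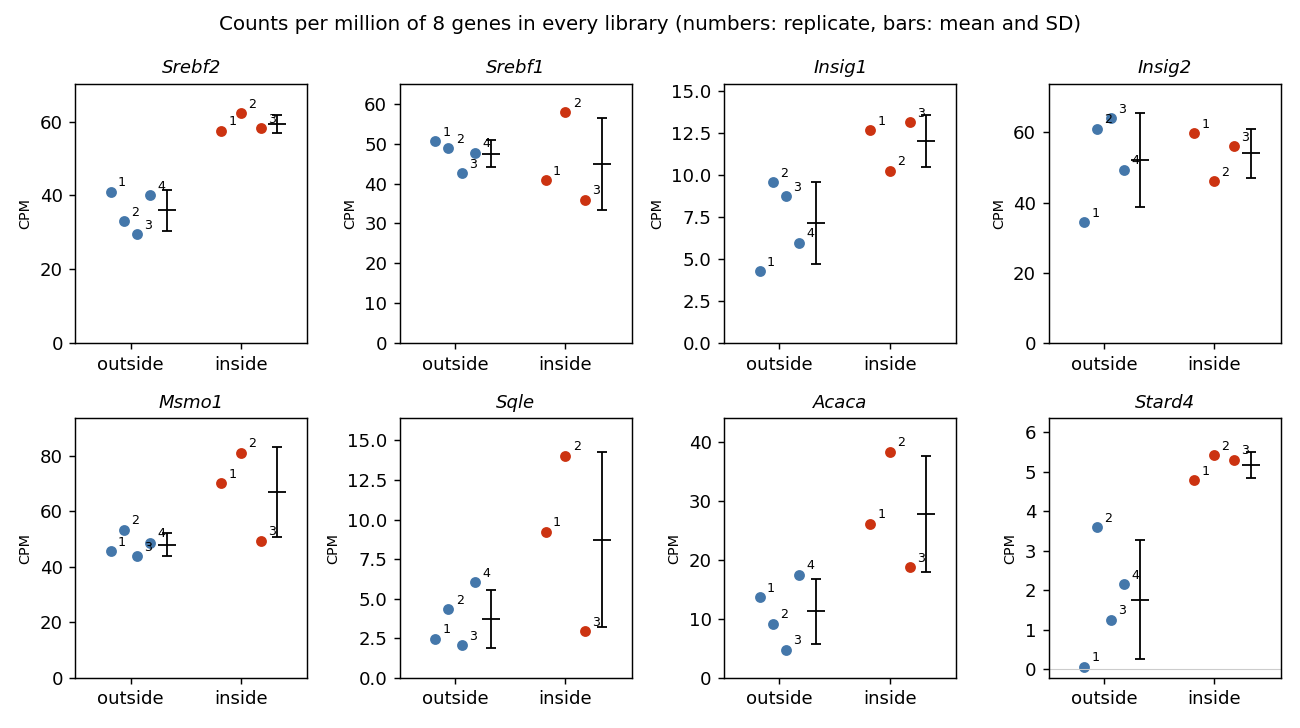
Level in CPM (vertical axes from 0, linear) of 8 genes in each of the 4 outside (blue) and 3 inside (red) libraries, numbered by replicate, with the mean and SD of each group beside the points. For Srebf2, Insig1, Acaca and Stard4 the 3 inside libraries lie above the 4 outside ones, and for Msmo1 and Sqle inside graft 3 falls among the outside libraries.

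RefSeq windows from 250 bases before to 50 after a transcript start were found for 25 of the 31 genes on GRCm38.p6, 33 windows in all, and not for Stard4, Fdft1, Fdps, Sqle, Scd2 and Scd1. They were searched on both strands for 3 motifs. The sequence TCACNCCA, a form of the sterol regulatory element that SREBP proteins bind, was in 3 of the 33 windows (9.09%) and in 4.36% of all 32851 RefSeq windows. The 3 genes were Srebf2, Hmgcs1 and Msmo1. The E-box CACGTG, which SREBP-1 can also bind, was in 6 windows (18.2%) of 5 genes, Insig1, Sc5d, Hsd17b7, Dhcr7 and Scap, and in 7.15% of all windows. The windows of Scap overlap and hold the same E-box, so that this site is counted more than once. CCAAT, the site of the cofactor NF-Y, was in 22 windows (66.7%) of 21 genes and in 37.4% of all. A match describes the sequence and was not tested as a site. The stretches below show these motifs beside Srebf2 and Insig1, the control genes with the largest log2 fold changes. They also show them beside the enzyme genes Hmgcs1 and Msmo1, which match TCACNCCA as Srebf2 does. In each stretch the 1 sterol element or E-box is in capitals and CCAAT is not marked, each sequence reads 5′ to 3′ on the strand of its gene, and the coordinates are those of GRCm38.p6.
Srebf2, chr15:82147019-82147180, plus strand: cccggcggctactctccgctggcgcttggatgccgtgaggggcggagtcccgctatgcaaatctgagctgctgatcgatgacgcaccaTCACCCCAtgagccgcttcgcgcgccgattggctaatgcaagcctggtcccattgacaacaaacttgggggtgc
Insig1, chr5:28071162-28071362, plus strand: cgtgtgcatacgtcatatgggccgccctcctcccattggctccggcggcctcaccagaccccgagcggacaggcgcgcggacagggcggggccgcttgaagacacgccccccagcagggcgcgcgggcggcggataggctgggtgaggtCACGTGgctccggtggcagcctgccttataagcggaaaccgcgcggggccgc
Hmgcs1, chr13:119690101-119690350, plus strand: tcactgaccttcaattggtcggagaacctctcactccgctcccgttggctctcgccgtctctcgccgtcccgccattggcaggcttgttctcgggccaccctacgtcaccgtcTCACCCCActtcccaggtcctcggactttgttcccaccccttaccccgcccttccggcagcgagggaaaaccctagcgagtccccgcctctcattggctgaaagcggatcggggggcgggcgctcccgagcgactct
Msmo1, chr8:64733737-64733766, minus strand: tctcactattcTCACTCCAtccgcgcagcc
By the GENCODE M21 annotation, the stretches of Srebf2, Insig1 and Hmgcs1 end before the gene begins, and that of Msmo1 lies just inside the gene. Counted from the RefSeq start, the element began at -162 in Srebf2, -137 in Hmgcs1 and -177 in Msmo1, and the E-box began at -101 in Insig1.

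The 8 genes of the mevalonate and isoprenoid steps showed little difference between the groups. Of these, 5 had a positive and 3 a negative log2 fold change, with a median of 0.11 and 0 genes at an unadjusted P below 0.05 in either test. Their summed level was 134, 140.1 and 130.3 CPM inside the graft and 132 to 148 CPM outside it, so that only inside graft 3 lay below the outside range. Hmgcs1, whose product condenses acetoacetyl-CoA with acetyl-CoA to HMG-CoA, had 20.6 to 25.3 CPM inside and 13.0 to 26.9 CPM outside, with a log2 fold change of -0.06 (95% interval -0.52 to 0.41). Its groups overlapped. Of the other genes with a TCACNCCA match, Msmo1 also had overlapping groups and Srebf2 did not. The part of the match in these values was not tested.

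Per length the highest of the 8 was Ggps1, which makes geranylgeranyl diphosphate, a lipid anchor of proteins, at 12.4 CPM per kilobase inside and 14.6 outside. It had 63.6, 56.0 and 56.7 CPM inside and 72.4, 68.6, 74.1 and 61.4 CPM outside the graft. The inside libraries were low, with only outside graft 4 reaching below inside graft 1, and the log2 fold change was -0.20 (95% interval -0.49 to 0.09, adjusted P = 0.612 in voomWithQualityWeights). Exons of Arid4b lie on the other strand of its exons.

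Acat2, the cytosolic thiolase of the first step, had 8.44 to 10.2 CPM inside and 9.13 to 15.7 CPM outside, with a log2 fold change of -0.36 (SE 0.26). Of its possible 75-base stretches, 33.9% also occur in other genes, among them Acat3 and Tcp1, and reads from these were not counted. The kinases Mvk and Pmvk had log2 fold changes of 0.01 and 0.22. The decarboxylase gene Mvd and the isomerase gene Idi1 had 0.47 and 1.05, with standard errors of 0.44 and 0.59. Both had their lowest level in outside graft 1, with 27 counts of Mvd against 137 to 301 in the other libraries and 5 counts of Idi1 against 14 to 57. Fdps, which builds farnesyl diphosphate at the branch point of the route, had 6.32 to 13.8 CPM inside and 6.48 to 8.27 CPM outside (log2 fold change 0.42, standard error 0.29). Idi1 and Fdps share 23.6% and 23.5% of their 75-base stretches with other genes.

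**Figure D3:**
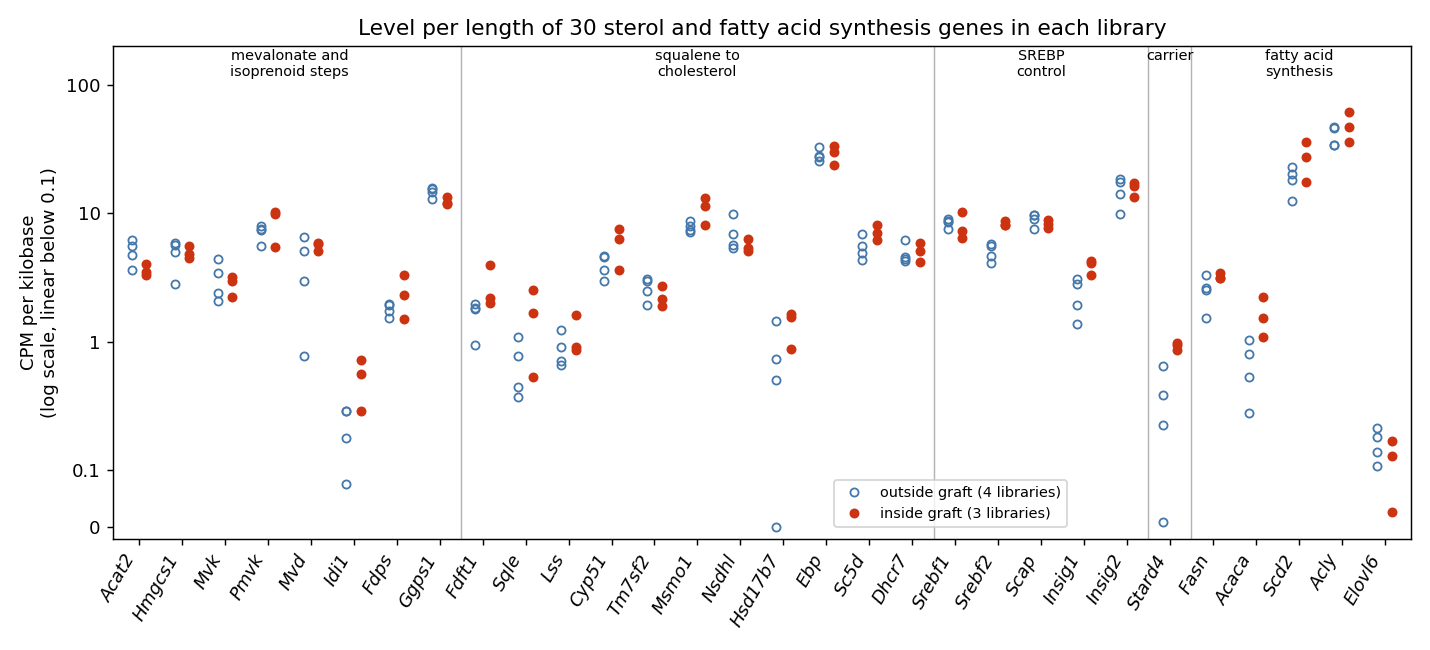
CPM per kilobase of gene length (vertical axis, log scale above 0.1 and linear below it) of the 30 tested genes in the 4 outside (open circles) and 3 inside (filled circles) libraries, in order of pathway role. Acly, Ebp and Scd2 stand highest, Elovl6 and Idi1 lowest, and the circles at or near 0 for Hsd17b7 and Stard4 are outside graft 1.

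Of the 11 genes that lead from squalene to cholesterol, 9 had a positive and 2 a negative log2 fold change, with a median of 0.42. Their summed level was 290, 339 and 237 CPM in inside graft 1, 2 and 3 and 221 to 247 CPM outside the graft, so that inside graft 3 lay within the outside range. At an unadjusted P below 0.05, voomWithQualityWeights named Msmo1 and Sc5d and edgeR named Msmo1 and Sqle.

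Msmo1 encodes an oxygenase that acts in the removal of methyl groups from the sterol ring. It had 70.1, 81.2 and 49.4 CPM inside and 45.6, 53.4, 43.9 and 48.7 CPM outside the graft. Inside graft 1 and 2 lay above all outside libraries, and inside graft 3 lay among them. For Msmo1 the log2 fold change was 0.48 (SE 0.17, adjusted P = 0.258) in voomWithQualityWeights and 0.48 (adjusted P = 0.389) in edgeR. It was 0.31 in voomWithQualityWeights with inside graft 2 left out.

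Sc5d, a desaturase of the last steps, had 29.95 to 39.5 CPM inside and 20.9 to 33.5 CPM outside, where the highest value was that of outside graft 1. Its log2 fold change was 0.53 (SE 0.18, adjusted P = 0.242) in voomWithQualityWeights and 0.40 (adjusted P = 0.581) in edgeR. Sqle, the epoxidase that commits squalene to sterols, had 2.95 to 14.0 CPM inside and 2.05 to 6.03 CPM outside, with log2 fold changes of 1.08 (SE 0.55) and 1.23 in these tests. Its lowest inside value, in inside graft 3, lay among the outside libraries, and the first estimate was 0.56 with inside graft 2 and 1.65 with inside graft 3 left out. Cyp51, the lanosterol demethylase, had 15.9 to 33.3 CPM inside and 13.2 to 20.5 CPM outside (log2 fold change 0.42, standard error 0.25), again with its lowest inside value in inside graft 3, and 0.183 or 0.70 with inside graft 2 or 3 left out.

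Fdft1, squalene synthase, was the only gene of these 11 whose groups did not overlap. It had 9.22, 16.8 and 8.43 CPM inside and 4.0, 7.56, 7.72 and 8.34 CPM outside the graft. Inside graft 3 and outside graft 4 were nearly equal, far closer than the spread within either group, and the log2 fold change was 0.53 (SE 0.30, adjusted P = 0.548 in voomWithQualityWeights), or 0.23 with inside graft 2 left out. Exons of Fdft1 and of the lysosomal protease gene Ctsb overlap on opposite strands, strand was not used in counting, and 21.8% of the 75-base stretches of Fdft1 also occur in other genes, Ctsb among them. Ctsb had 5805, 7516 and 4434 CPM in inside graft 1, 2 and 3 and 3444 to 4360 CPM outside, so that the inside libraries stood in the same order for both genes. Reads of Ctsb and of Fdft1 over the shared bases cannot be told apart.

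Ebp, the sterol isomerase, was the highest of the 11 per length, at 29.0 CPM per kilobase inside and 28.3 outside. It had 68.7, 77.5 and 54.9 CPM inside and 63.4, 75.5, 58.3 and 64.2 CPM outside the graft. The groups overlapped over nearly their whole range, and the log2 fold change was 0.07 (95% interval -0.26 to 0.39). Lss, the cyclase that forms lanosterol, and Dhcr7, the reductase that yields cholesterol, had log2 fold changes of 0.19 and 0.14, and Tm7sf2 and Nsdhl had -0.25 and -0.20. Hsd17b7, a sterol ketoreductase, had the largest estimate of the 11, 1.43, but a standard error of 0.84. It had 0 counts in outside graft 1, which allows up to 0.16 CPM by counting error alone, and 64 to 212 counts in the other libraries.

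Stard4, which carries cholesterol between membranes and is a known sterol-responsive gene, had the largest log2 fold change of the 30 genes and low counts. It had 122, 122 and 126 counts (4.79, 5.41 and 5.31 CPM) in inside graft 1, 2 and 3 and 1, 81, 31 and 53 counts (0.053, 3.60, 1.25 and 2.15 CPM) in outside graft 1, 2, 3 and 4. The inside libraries lay within 1 CPM of each other and above all outside libraries, which spread widely. Stard4 had a log2 fold change of 1.74 (SE 0.61, 95% interval 0.40 to 3.09, adjusted P = 0.266) in voomWithQualityWeights and 1.55 (adjusted P = 0.614) in edgeR. Without outside graft 1 it was 1.43 with an adjusted P of 0.18 in voomWithQualityWeights. Per length it was low, at 0.926 CPM per kilobase inside and 0.316 outside.

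Of the 6 genes of fatty acid synthesis, 5 could be tested, 4 of them with a positive log2 fold change and a median of 0.44. Acaca, acetyl-CoA carboxylase, which makes the malonyl-CoA for chain building, differed most. It had 26.1, 38.3 and 18.7 CPM inside and 13.6, 9.12, 4.75 and 17.5 CPM outside the graft. All inside libraries lay above the outside libraries, with inside graft 3 and outside graft 4 about 1 CPM apart. The log2 fold change was 1.50 (SE 0.42, 95% interval 0.59 to 2.41, adjusted P = 0.145) in voomWithQualityWeights and 1.30 (adjusted P = 0.271) in edgeR, and the adjusted P was 0.0468 in DESeq2. Leaving out outside graft 3, its lowest library, gave a log2 fold change of 1.05 and an adjusted P of 0.418 in voomWithQualityWeights. That setting called 1 gene in all, against 75 with every library. Of the 75-base stretches of Acaca, 26.8% also occur in other genes. Gm5182, which shares the most of them, had 1 to 5 counts per library.

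Scd2, the main stearoyl-CoA desaturase of the brain, had 95.5 to 196 CPM inside and 67.7 to 125 CPM outside, and its log2 fold change was 0.48 (SE 0.22, adjusted P = 0.403 in voomWithQualityWeights), with 0.187 when inside graft 1 and 0.71 when inside graft 3 was left out. Its paralog Scd1 had 1 count each in outside graft 1 and 2 and 0 in the other 5 libraries, where a count of 0 allows up to 0.118 to 0.133 CPM by counting error alone. Fasn, fatty acid synthase, had 34.0 to 37.7 CPM inside and 16.8 to 36.3 CPM outside (log2 fold change 0.44, 95% interval -0.02 to 0.89).

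Acly, ATP citrate lyase, which supplies cytosolic acetyl-CoA to both routes, was the highest of all 30 genes per length, at 48.0 CPM per kilobase inside and 40.1 outside. It had 323, 247 and 189.9 CPM inside and 180.0, 178, 244 and 246 CPM outside the graft. Inside graft 3 and outside graft 1 and 2 were low and the groups overlapped, with a log2 fold change of 0.18 (95% interval -0.21 to 0.57). The elongase gene Elovl6 had 4 to 31 counts per library and a log2 fold change of -0.87 (SE 0.77). The summed level of the fatty acid genes was 581, 472 and 339 CPM inside and 298 to 392 CPM outside, and most of it came from Acly and Scd2.

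Across the roles, the groups did not overlap and the inside libraries were the higher for 5 of the 30 genes (Fdft1, Srebf2, Insig1, Stard4 and Acaca), and for 5.65% of all genes. The reverse order held for 0 of the 30 and for 5.02% of all genes. With inside graft 3 left aside, a comparison made after its values had been seen, 14 of the 30 genes had both remaining inside libraries above all outside libraries, where 9.56% of all genes did. The 9 genes added were Idi1, Fdps, Sqle, Cyp51, Msmo1, Hsd17b7, Sc5d, Scd2 and Acly.

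The inside libraries themselves stood in a common order in many of the enzymes. Inside graft 2 was the highest and inside graft 3 the lowest of the 3 for 12 of the 30 genes (40%), and for 9 of the 19 enzymes of the sterol route (47.4%), while this order held for 19% of all genes tested. This order was noticed in these values and is a description of 3 libraries. For the genes from squalene to cholesterol, the median deviation from the outside mean was 0.40, 0.76 and 0.047 on the log2 CPM scale in inside graft 1, 2 and 3, and -0.066 to 0.23 in the outside libraries. For the fatty acid genes it was 0.63, 0.51 and 0.12, and for the mevalonate and isoprenoid steps 0.065, 0.27 and 0.039. Srebf2, Insig1 and Stard4 did not follow this order and were as high in inside graft 3 as in inside graft 1. Inside graft 3 had the highest and inside graft 2 the lowest sum of monocyte markers (1358 and 76.6 CPM, of which Chil3 gave 1189 and 67.6). The part of this in the order was not tested.

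**Figure D4:**
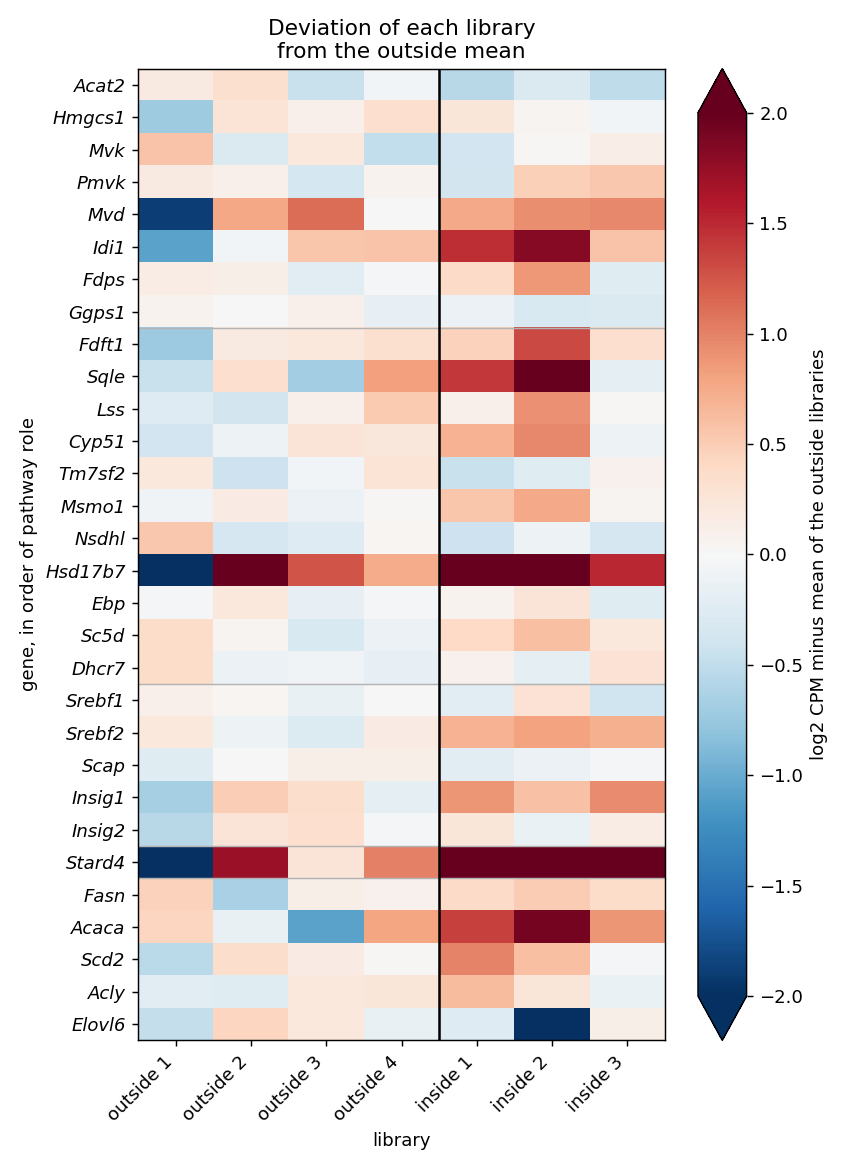
Difference of log2 CPM from the mean of the 4 outside libraries (colour, limited to -2 and 2) for each of the 30 tested genes (rows, by pathway role) in each library (columns), with outside libraries left and inside libraries right of the black line. The rows of Sqle, Cyp51 and Msmo1 are red in inside graft 1 and 2 and pale in inside graft 3, and outside graft 1 is dark blue for Mvd, Hsd17b7 and Stard4.

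Neighbouring parts of lipid metabolism were examined as 4 further lists. Of 5 genes that process or degrade the SREBP machinery, 1 had a positive and 4 a negative log2 fold change (median -0.19), and 0 passed an adjusted P of 0.05 in voomWithQualityWeights or edgeR, or an unadjusted P of 0.05. The site-1 and site-2 proteases that release SREBP, Mbtps1 and Mbtps2, had -0.12 and -0.19, and the ubiquitin ligase gene Rnf139 had -0.25. Of 10 genes that use isoprenoids, such as the prenyltransferases, 7 were positive and 3 negative (median 0.088), and 0 passed an adjusted or unadjusted P of 0.05 in either test. The largest difference was that of Pdss1, a subunit of the enzyme that makes the tail of coenzyme Q, at 0.31. All 10 intervals lay between -1 and 1.

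Of 13 genes of fatty acid supply, elongation and desaturation, 10 could be tested, with 5 positive, 5 negative and a median of 0.060. Again 0 passed an adjusted or unadjusted P of 0.05 in either test. The elongase gene Elovl5 had 0.29, and the citrate carrier gene Slc25a1 had -0.21. The untested genes were Me1, Acacb and Elovl7. Fads2 had the largest estimate, 0.69, with a standard error of 1.80 and less than 1 CPM in every library.

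Among 8 genes of sterol sensing and storage, 6 were positive and 2 negative with a median of 0.43, and 1 rose at an adjusted P below 0.05 in voomWithQualityWeights, where 0.433% of all genes did so. This was Ch25h, which makes the signalling oxysterol 25-hydroxycholesterol. It had 36.4, 63.5 and 32.8 CPM inside and 14.9, 15.9, 4.06 and 7.98 CPM outside the graft. The lowest inside value was above the highest outside value. Its log2 fold change was 2.50 (SE 0.39, adjusted P = 0.0367) in voomWithQualityWeights and 2.05 (adjusted P = 0.0953) in edgeR. The call was lost without outside graft 3 (adjusted P = 0.181), without outside graft 4 (0.155) and without library weights (0.0745). These settings called 1, 1 and 10 genes in all, against 75 in the main test. Unadjusted, 4 of the 8 genes passed 0.05 in each test, Ch25h, Soat1, Npc2 and Lipa, all higher inside, as 7.47% of all genes were in voomWithQualityWeights and 5.76% in edgeR. Soat1, which esterifies cholesterol for storage, had a log2 fold change of 0.53 (adjusted P = 0.0663 in voomWithQualityWeights), with 186, 165 and 146 CPM inside and 109 to 127 CPM outside. The nuclear receptor genes Nr1h2 and Nr1h3, which encode the liver X receptors, had -0.14 and 1.13, and the latter had 0.729 to 6.40 CPM across the 7 libraries.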

How the data were processed

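The authors converted reads with bcl2fastq 2.18, aligned single reads with STAR 2.7.2a to GRCm38.p6 and counted them with featureCounts 1.6.2 over exons, by the gene names of the GENCODE M21 annotation. They deposited raw read counts per gene name, 1 column per library and without normalization. Each read went to the gene with the largest overlap, strand was ignored, and multi-mapped reads were dropped, which lowers the counts of genes with close copies. Gene lengths are those deposited with the counts. Reads carried no molecular identifiers and PCR copies cannot be told from separate molecules, so limits for 0 counts cover counting error only. Groups and replicate numbers follow the labels. All 9 pairs of libraries within a group differed by more than counting noise (chi-square per degree of freedom 12.8 to 59.4).

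From the counts, genes were filtered with filterByExpr and scaled with TMM in edgeR 4.0.16 under R 4.3.3. The main test was limma 3.58.1 voomWithQualityWeights, as in the study, with edgeR's quasi-likelihood test (robust=FALSE, legacy=TRUE) beside it. DESeq2 1.42.0 was an alternative. P values were adjusted by Benjamini-Hochberg over all 15257 genes, with a threshold of 0.05. Deviations of log2 CPM used a prior count of 2. The scripts were tested on simulated data.

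Values in every library are given for genes past an adjusted P of 0.05 in either test, genes with an unadjusted P below 0.05 in both, the 5 SREBP control genes, genes whose groups do not overlap and the highest gene per length of each role. For the 4 other pathway lists, values are given for genes past an adjusted P of 0.05 and for at most 3 further genes with the largest differences, and other genes are named only where a count turns on them. The genes, lists and tests were chosen with earlier results of these data known.

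Deviations of same-numbered libraries of the 2 groups had correlations of -0.043, 0.090 and 0.067, and libraries of unlike numbers -0.117 to 0.048. Correlations this small cannot tell whether same-numbered libraries share a mouse. The labels do not give pairs, so replicate numbers were not used as pairs in the main tests. Alternatives were other normalizations, filters, tests, weights and thresholds, a replicate block, and each library left out in turn.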

Additional observations from a re-analysis of the deposited data

Results flagged for a closer look

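Over the 4 outside libraries, the CPM of each of the 31 genes was examined for a library far from the others. Dhcr7, the reductase that yields cholesterol, stood at 35.7 CPM in outside graft 1, against 24.7 to 26.6 CPM in the other outside libraries. Chance gives such a value in about 1 of 20 genes, or 1.55 of 31, and 1 was found. The cause was not tested.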

How the results depend on the processing

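No gene of the 30 passed an adjusted P of 0.05 in voomWithQualityWeights with any library left out (0 to 0), and Srebf2 was the 1 gene past it when genes needed 10 counts in every library, a filter under which 211 genes in all were called, against 75. The edgeR count of 0 became 2 without a filter (of 366 genes in all), 1 with legacy=FALSE (Srebf2, of 247) and 2 in DESeq2 (of 420), against 15 genes in all, and was 0 with any library left out. At an unadjusted P below 0.05, the 7 higher genes of voomWithQualityWeights numbered 4 to 10 and the 0 lower genes 0 to 1 with a library left out. The 5 genes of edgeR numbered 3 with library size alone, 8 without a filter, 8 with legacy=FALSE and 2 to 8 with a library left out. For these unadjusted counts the share of all genes was not computed under the alternatives. The median log2 fold change of 0.32 was 0.197 without a filter, 0.21 with 10 counts in every library, and 0.166 to 0.40 with a library left out. Genes with every inside library above every outside library numbered 5 to 14, and those below 0 to 2, with a library left out, where fewer libraries make such an order more frequent. The 14 were found with inside graft 3 left aside, where 9.56% of all genes had this order. For the other settings the share of all genes was not computed, so these counts cannot be read as particular to these genes. Signs turned for small differences, Insig2 to 0.066 without library weights and over -0.10 to 0.090 with a library left out, Srebf1 over -0.28 to 0.060, Ebp over -0.057 to 0.186 and Acly over -0.051 to 0.338. The cause of each change was not tested.

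With the replicate block, fitted without outside graft 4, which has no partner, 2 of the 30 genes were called by voomWithQualityWeights, Srebf2 (adjusted P = 0.0353) and Acaca (adjusted P = 0.0117), among 265 genes in all. For 1 of the 30 genes, every inside library lay below every outside library, an order whose share of all genes was not computed under the block. The edgeR test called 0 of the 30 under the block. The labels do not say what the shared numbers stand for.

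Changes above 2-fold lay within the 95% interval for 11 of the 30 genes, Srebf2 among them.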
